A study of Mus musculus with 6 samples.

Results

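The genes described here encode the enzymes that make cholesterol and fatty acids, together with the SREBP system that controls them. They were the 36 rows of a count table of 21652 genes whose symbol stood on a list of lipid synthesis genes, and all 36 were found once and had enough counts to be tested. The list held 17 enzymes of the endoplasmic reticulum (ER) membrane, 13 enzymes of the cytosol, 5 ER-membrane regulators and 1 cytosolic sterol carrier. It was drawn up with earlier results of these data known.

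Footprints were measured by ribosome profiling, which sequences the mRNA fragments that ribosomes protect from nuclease, in MIN6, an insulin-producing mouse line derived from a beta-cell tumour. In 3 libraries the cells expressed sgLTN1, a CRISPR guide against Ltn1, and in 3 libraries they expressed sgNT, read here as a guide without a target. The labels give no other treatment, state no time after guide delivery, and do not say whether the cells were clones or pools or whether each library had its own culture. The p-values therefore measure the scatter among these 6 libraries only, and that scatter may be technical. All 6 libraries carry the same batch label. Gene totals were 4993245 to 11198735 counts in sgLTN1 libraries and 4373467 to 7802364 counts in sgNT libraries, and the lowest count of any member in any library was 24. Ltn1, which encodes the Listerin ubiquitin ligase, read 65.3, 71.4 and 64.9 CPM in sgLTN1 libraries, against 143, 145 and 141 CPM in sgNT libraries. These are 67.2 ± 3.67 CPM in sgLTN1 libraries and 143 ± 1.84 CPM in sgNT libraries (mean ± SD, n = 3 each), where CPM is the count scaled to library size. All 8 beta-cell markers were detected, with summed levels of 123910 to 142210 CPM in sgLTN1 libraries and 127200 to 134770 CPM in sgNT libraries. Among them Chga, at 0.19 (log2 fold change, SE 0.05), and Slc30a8, at 0.23 (SE 0.07), were higher at an unadjusted p under 0.05, where 8.0% of all tested genes were. Pdx1, at -0.12 (SE 0.07), was lower in every sgLTN1 library without reaching that mark. Markers of exocrine, liver, fat, blood and vessel cells summed to at most 35.2 CPM per list in any library. Among 4 markers of other islet cells, 3 could be tested. Of them 2, Sst and Ppy, were higher in sgLTN1 at an unadjusted p under 0.05, where 8.0% of all tested genes were. Ppy had only 9 to 64 counts per library. The list of other islet markers summed to 571 to 638 CPM in sgLTN1 libraries and 578 to 633 CPM in sgNT libraries. The part of these and the beta-cell markers in the results below was not tested.

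Cholesterol synthesis begins with soluble enzymes that turn acetyl-CoA into the isoprenoid farnesyl diphosphate and ends with enzymes embedded in the ER membrane that build squalene and convert it to sterols. Fatty acids follow the same plan: soluble enzymes assemble the saturated chain, and ER-membrane elongases and desaturases remodel it. Transcription factors of the SREBP family switch on most of these genes. Their precursors are ER-membrane proteins that Scap escorts to the Golgi for cleavage when sterols are scarce and that Insig proteins hold back when sterols are plentiful.

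In these data the ER-membrane and cytosolic enzymes differed in median change, while their ranges overlapped. Of the 17 ER-membrane enzymes, 16 had a log2 fold change above 0 (sgLTN1 over sgNT), with a median of 0.18 and a range of -0.02 to 0.30, and 14 did so when libraries were scaled by total counts. Of the 13 cytosolic enzymes, 8 lay above 0, with a median of 0.02 and a range of -0.23 to 0.29, and with total-count scaling 3 lay above 0 and the median was -0.056. With that scaling 33.1% of all tested genes lay above 0. All 5 regulators lay above 0, with a median of 0.15, except that Scap read -0.0084 with total-count scaling. Over all 12782 tested genes the median was -0.02 and 47.3% lay above 0. The differences were small, and no member passed an adjusted p of 0.05 in edgeR's quasi-likelihood test, a mark that 0.180% of all tested genes passed. The lowest adjusted p among the members was 0.102.

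At an unadjusted p under 0.05, 11 members were higher in sgLTN1, namely 10 ER-membrane enzymes and Srebf1, where 8.0% of all tested genes were called higher by this rule. The 11 became 7 without sgLTN1 library 1 and 7 with total-count scaling, under which 3.50% of all tested genes were called higher. Only Pmvk was lower at that p, where 7.56% of all tested genes were. In 11 members every sgLTN1 library read above every sgNT library, against 10.1% of all tested genes, and 10 of these were ER-membrane enzymes and the other was Insig2. In Pmvk and Acss2, both cytosolic, every sgLTN1 library read below every sgNT library, a separation seen in 10.1% of all tested genes. Overlap, here and for single genes below, was judged on CPM with TMM scaling. The TMM factors were 0.954 to 0.992 in sgLTN1 libraries and 1.00 to 1.04 in sgNT libraries, and lower factors give higher CPM. With total-count scaling the groups overlapped in some of the 11, among them Msmo1, Cyp51, Nsdhl and Insig2. Separation over all genes was not counted with that scaling. The members were chosen with earlier results known, so these counts describe them and carry no list test. Footprints do not separate the amount of an mRNA from its occupancy by ribosomes, and in bulk samples fewer cells of a type and less RNA per cell cannot be told apart.

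**Figure D1:**
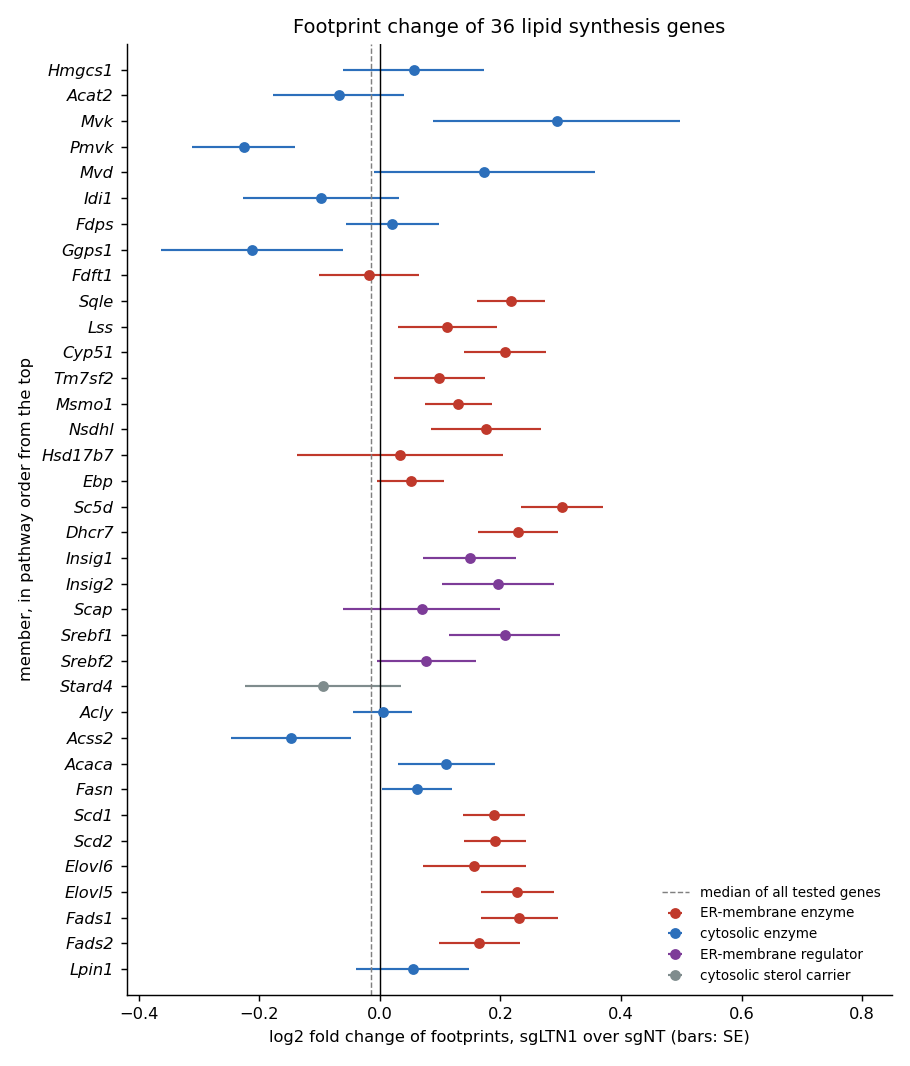
Log2 fold change of footprints, sgLTN1 over sgNT, for the 36 members in pathway order from the top. Points are the fitted values, bars their standard errors, colours the class of the protein, and the dashed line the median of all tested genes (-0.02). ER-membrane enzymes lie right of 0 except Fdft1, and cytosolic enzymes lie on both sides.

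Among the regulators, Srebf1 (ENSMUSG00000020538.16), which encodes the SREBP-1 precursors known for fatty acid genes, read 519, 515 and 428 CPM in sgLTN1 libraries, against 444, 453 and 372 CPM in sgNT libraries. The lowest sgLTN1 library lay within the sgNT range, so the groups overlapped. The log2 fold change was 0.21 (SE 0.09, adjusted p = 0.315), and the counts do not separate the isoforms of this gene. Srebf2 (ENSMUSG00000022463.9), whose product is known for cholesterol genes, read 153, 144 and 143 CPM in sgLTN1 libraries, against 148, 147 and 122 CPM in sgNT libraries. The groups overlapped, and the log2 fold change was 0.08 (SE 0.08, adjusted p = 0.713).

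Scap (ENSMUSG00000032485.15), the escort, read 92.2, 99.4 and 72.3 CPM in sgLTN1 libraries, against 78.2, 75.7 and 101 CPM in sgNT libraries, a spread within each group larger than the difference between them (log2 fold change 0.07, SE 0.13, adjusted p = 0.853). Insig1 (ENSMUSG00000045294.12), a retention protein that is itself an SREBP target, read 122, 110 and 104 CPM in sgLTN1 libraries, against 98.1, 106 and 99.2 CPM in sgNT libraries. The lowest sgLTN1 library lay just under the highest sgNT library, and the log2 fold change was 0.15 (SE 0.08, adjusted p = 0.385). Insig2 (ENSMUSG00000003721.15), its paralog, read 53.4, 58.1 and 52.4 CPM in sgLTN1 libraries, against 50.4, 42.7 and 51.3 CPM in sgNT libraries. Here the groups did not overlap, with a log2 fold change of 0.20 (SE 0.09, adjusted p = 0.340). Stard4, the soluble sterol carrier, read 10.5 to 11.6 CPM in sgLTN1 libraries and 10.8 to 13.1 CPM in sgNT libraries.

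Promoters are shown because SREBPs act at them together with the factors NF-Y and Sp1. RefSeq promoter windows of build GRCm38.p6, from 250 bases before to 50 bases after a gene's start, were matched by symbol for 29 of the 36 members; Fdps, Fdft1, Sqle, Stard4, Scd1, Scd2 and Fads1 had no entry. The 4 windows below belong to Sc5d, Elovl5, Hmgcs1 and Fasn. Sc5d and Elovl5 are the ER-membrane enzymes with the smallest p among those with a window. Hmgcs1 and Fasn are cytosolic enzymes, of an early sterol step and of fatty acid chain assembly. Capitals mark CCAAT, the NF-Y box, read on either strand (ATTGG on the other), and in Hmgcs1 also the sterol regulatory element TCACNCCAC.
Sc5d (chr9:42264251-42264550, minus strand): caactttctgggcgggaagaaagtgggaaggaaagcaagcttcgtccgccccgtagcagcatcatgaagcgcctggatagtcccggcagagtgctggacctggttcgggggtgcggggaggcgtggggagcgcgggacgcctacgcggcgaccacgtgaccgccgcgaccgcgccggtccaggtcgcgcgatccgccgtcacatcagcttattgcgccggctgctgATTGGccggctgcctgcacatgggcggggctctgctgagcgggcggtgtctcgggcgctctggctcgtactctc
Elovl5 (chr9:77917115-77917414, plus strand): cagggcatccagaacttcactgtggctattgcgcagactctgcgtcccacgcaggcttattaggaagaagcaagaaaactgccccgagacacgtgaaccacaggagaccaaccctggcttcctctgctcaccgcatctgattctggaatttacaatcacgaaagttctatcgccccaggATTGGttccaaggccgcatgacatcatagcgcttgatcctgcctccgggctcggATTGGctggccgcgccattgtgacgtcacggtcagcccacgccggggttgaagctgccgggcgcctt
Hmgcs1 (chr13:119690101-119690400, plus strand): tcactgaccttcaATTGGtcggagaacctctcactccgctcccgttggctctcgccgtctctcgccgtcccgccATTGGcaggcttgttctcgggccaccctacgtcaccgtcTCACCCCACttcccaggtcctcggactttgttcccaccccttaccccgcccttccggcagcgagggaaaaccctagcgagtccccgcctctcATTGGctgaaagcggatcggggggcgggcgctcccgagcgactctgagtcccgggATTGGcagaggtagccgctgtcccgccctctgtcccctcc
Fasn (chr11:120824498-120824797, minus strand): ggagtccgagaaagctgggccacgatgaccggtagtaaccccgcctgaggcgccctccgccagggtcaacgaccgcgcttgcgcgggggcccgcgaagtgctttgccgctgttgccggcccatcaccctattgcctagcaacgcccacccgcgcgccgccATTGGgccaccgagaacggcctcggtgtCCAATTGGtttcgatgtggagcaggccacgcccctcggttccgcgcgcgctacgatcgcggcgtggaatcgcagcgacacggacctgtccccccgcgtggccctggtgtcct
An NF-Y box stood in 79.3% of the 29 members with a window and in 41.1% of 27025 genes of the table. It was found in 10 of 12 ER-membrane enzymes, 9 of 12 cytosolic enzymes and 4 of 5 regulators. The GC box GGGCGG, bound by Sp1, stood in 75.9% of these members and in 38.2% of genes, and the E-box CACGTG in 20.7% and 8.09%. The element TCACNCCAC, searched on both strands, stood in Hmgcs1 alone among the members, 137 bases before the start, and in 1.44% of genes. In Fasn, 2 of the 3 NF-Y boxes overlap. The 27025 genes include genes not tested here and were not matched to the members in abundance or base composition. These are letter matches and not measured binding sites. Elements that depart from these letters or lie outside the windows were not searched, so a member without a match may still have one.

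The early, soluble steps of the sterol pathway did not share a direction: 4 of the 8 enzymes lay above 0 and 4 below, with a median log2 fold change of -0.02. Hmgcs1, whose promoter is printed above and whose product makes HMG-CoA, read 29.3, 24.2 and 32.5 CPM in sgLTN1 libraries, against 25.0, 28.0 and 28.7 CPM in sgNT libraries. The groups overlapped throughout (log2 fold change 0.06, SE 0.12). Pmvk (ENSMUSG00000027952.17), phosphomevalonate kinase, read 24.0, 23.3 and 22.8 CPM in sgLTN1 libraries, against 26.8, 27.1 and 28.5 CPM in sgNT libraries. It was lower in every sgLTN1 library, with a log2 fold change of -0.23 (SE 0.09, adjusted p = 0.238). Fdps, farnesyl diphosphate synthase, read 169 to 178 CPM in sgLTN1 libraries and 152 to 184 CPM in sgNT libraries (0.02, SE 0.08). Among the other members of this stretch, Acat2, the thiolase that supplies acetoacetyl-CoA, was at -0.07 (SE 0.11), the mevalonate kinase gene Mvk at 0.29 (SE 0.20), the decarboxylase gene Mvd at 0.17 (SE 0.18), the isomerase gene Idi1 at -0.10 (SE 0.13) and Ggps1, which makes geranylgeranyl diphosphate, at -0.21 (SE 0.15). Mvk, Mvd and Ggps1 averaged 8.31 to 11.9 CPM per group.

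From squalene onward the enzymes sit in or on the ER membrane, and 10 of 11 lay above 0, with a median log2 fold change of 0.13. Sqle (ENSMUSG00000022351.15), squalene epoxidase, a rate-limiting enzyme of the later pathway, read 367, 363 and 357 CPM in sgLTN1 libraries, against 302, 320 and 313 CPM in sgNT libraries. The libraries of each group lay close together and the groups were apart, with a log2 fold change of 0.22 (SE 0.06, adjusted p = 0.128). Cyp51 (ENSMUSG00000001467.6), the lanosterol demethylase, read 575, 534 and 508 CPM in sgLTN1 libraries, against 443, 500 and 458 CPM in sgNT libraries. The gap between the groups was narrow beside the spread within them (0.21, SE 0.07, adjusted p = 0.193). Msmo1 (ENSMUSG00000031604.11), the methylsterol monooxygenase that follows, read 388, 377 and 368 CPM in sgLTN1 libraries, against 342, 346 and 348 CPM in sgNT libraries. The groups did not overlap, and the log2 fold change was 0.13 (SE 0.06, adjusted p = 0.288).

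Sc5d (ENSMUSG00000032018.15), the lathosterol desaturase, had the smallest p of the 36 members and, in this test, the largest log2 fold change. It read 96.6, 99.0 and 91.8 CPM in sgLTN1 libraries, against 78.8, 78.3 and 76.4 CPM in sgNT libraries, so the lowest sgLTN1 library stood well above the highest sgNT library. The log2 fold change was 0.30 (SE 0.07, adjusted p = 0.102), or 23.3% more footprints. Mvk, with its larger error, had the larger log2 fold change with DESeq2 (0.33, against 0.31 for Sc5d) and with the abundance trend removed (0.33, against 0.27 for Sc5d). Dhcr7 (ENSMUSG00000058454.16), a reductase of the final steps, read 229, 223 and 216 CPM in sgLTN1 libraries, against 192, 201 and 176 CPM in sgNT libraries. It too was higher in every sgLTN1 library (0.23, SE 0.07, adjusted p = 0.161). Nsdhl, a sterol dehydrogenase, read 45.0 to 51.0 CPM in sgLTN1 libraries and 38.3 to 44.7 CPM in sgNT libraries, with groups that did not overlap and an error too large for the unadjusted mark (0.18, SE 0.09).

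The remaining sterol enzymes did not reach the unadjusted mark. Lss, lanosterol synthase, which lies on the ER membrane without spanning it, was at 0.11 (SE 0.08). Tm7sf2, a sterol reductase, was at 0.10 (SE 0.08), Ebp, the sterol isomerase, at 0.05 (SE 0.06) and Hsd17b7, a ketosteroid reductase, at 0.03 (SE 0.17). Fdft1, squalene synthase, was the single ER-membrane enzyme below 0, at -0.02 (SE 0.08), with 64.9, 64.8 and 57.1 CPM in sgLTN1 libraries, against 59.6, 63.2 and 67.3 CPM in sgNT libraries. Fdft1 is anchored by its C-terminal tail, and such proteins enter the ER membrane after their synthesis ends. Whether this bears on its value was not tested. Leaving out Lss and Fdft1, a choice made after seeing the data, gave an ER-membrane median of 0.19. Both lay below the median of all 17 ER-membrane enzymes, 0.18, so leaving them out could only keep or raise it.

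**Figure D2:**
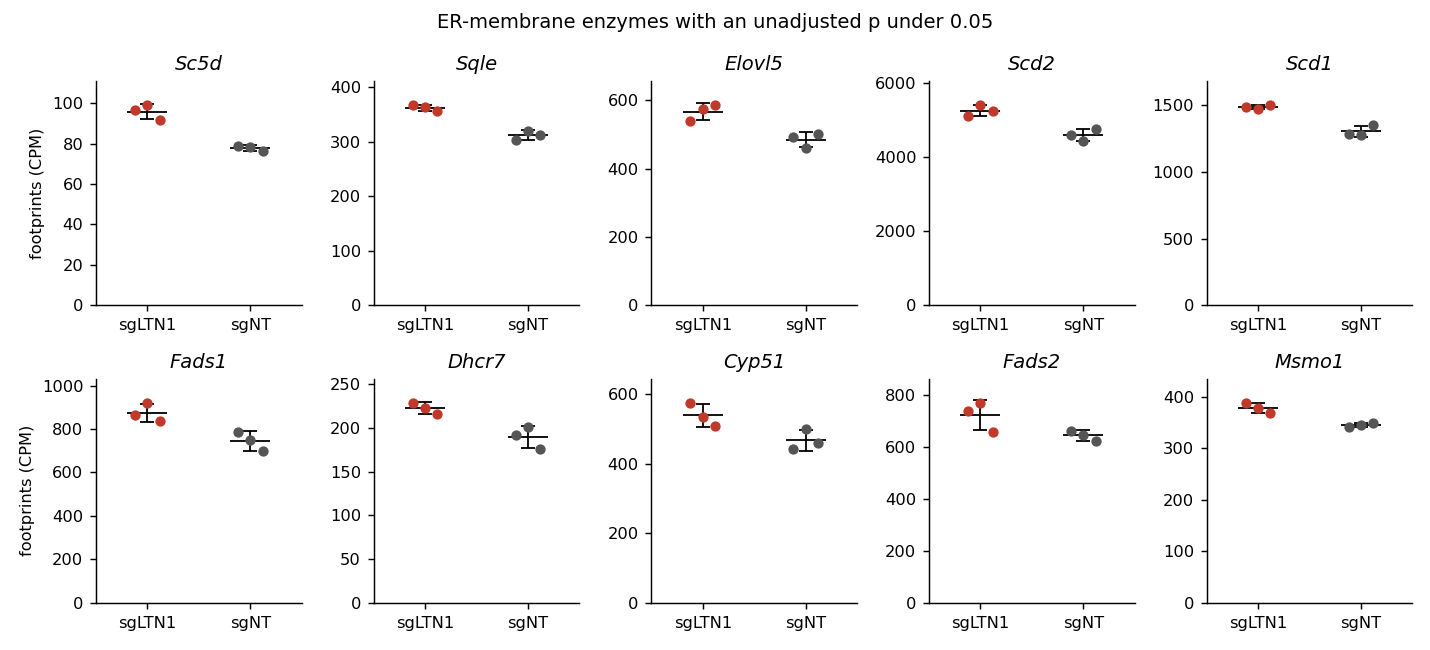
Footprints in CPM for the 10 ER-membrane enzymes with an unadjusted p under 0.05, ordered by p, with sgLTN1 left of sgNT. Points are libraries, horizontal marks the group means and bars the SD (n = 3 each), and each axis starts at 0. In all but Fads2 the lowest sgLTN1 library lies above the highest sgNT library on this TMM-scaled CPM.

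The 4 cytosolic enzymes that supply and build the chain had a median log2 fold change of 0.03, and none reached an unadjusted p of 0.05. Acly, ATP citrate lyase, which releases cytosolic acetyl-CoA, read 2340, 2319 and 2246 CPM in sgLTN1 libraries, against 2318, 2302 and 2263 CPM in sgNT libraries. These values were nearly equal and precisely measured (0.00, SE 0.05). Fasn, fatty acid synthase, read 703, 644 and 662 CPM in sgLTN1 libraries, against 625, 669 and 631 CPM in sgNT libraries (0.06, SE 0.06). Acaca, the acetyl-CoA carboxylase that makes malonyl-CoA, was at 0.11 (SE 0.08) and Acss2, which activates acetate, at -0.15 (SE 0.10). Lpin1, a phosphatidate phosphatase of the cytosol and nucleus that acts in glycerolipid synthesis, read 36.2 to 43.2 CPM in sgLTN1 libraries and 35.6 to 40.1 CPM in sgNT libraries (0.05, SE 0.09).

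All 6 ER-membrane enzymes that remodel the chain lay above 0, between 0.16 and 0.23. Of these, 5 were higher at an unadjusted p under 0.05, where 8.0% of all tested genes were. These 5 had a mean log2 CPM of at least 8, a range in which 46.5% of all genes were higher at that p and 81.4% lay above 0. The stearoyl-CoA desaturases introduce the double bond of oleate. Scd2 (ENSMUSG00000025203.7) read 5106, 5410 and 5249 CPM in sgLTN1 libraries, against 4599, 4449 and 4767 CPM in sgNT libraries, with a log2 fold change of 0.19 (SE 0.05, adjusted p = 0.138). Scd1 (ENSMUSG00000037071.4) read 1485, 1472 and 1503 CPM in sgLTN1 libraries, against 1282, 1277 and 1354 CPM in sgNT libraries (0.19, SE 0.05, adjusted p = 0.144). Both were higher in every sgLTN1 library. They are paralogs, and the sources used here do not say how reads that match both were counted.

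Elovl5 (ENSMUSG00000032349.14), an elongase of polyunsaturated fatty acids, read 539, 576 and 586 CPM in sgLTN1 libraries, against 492, 460 and 501 CPM in sgNT libraries, with a log2 fold change of 0.23 (SE 0.06, adjusted p = 0.136). Fads1 (ENSMUSG00000010663.6), a front-end desaturase of the same pathway, read 864, 921 and 837 CPM in sgLTN1 libraries, against 786, 750 and 698 CPM in sgNT libraries (0.23, SE 0.06, adjusted p = 0.144). In both the groups did not overlap. Fads2 (ENSMUSG00000024665.9), its neighbour in the pathway, read 735, 768 and 657 CPM in sgLTN1 libraries, against 661, 646 and 622 CPM in sgNT libraries. Its sgLTN1 library 3 lay within the sgNT range (0.16, SE 0.07, adjusted p = 0.268). Elovl6, the elongase of saturated and monounsaturated chains, read 44.7 to 51.4 CPM in sgLTN1 libraries and 41.4 to 44.9 CPM in sgNT libraries (0.16, SE 0.09).

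Within single libraries the classes could be set against each other directly. Counts on the ER-membrane enzymes together were 3.12, 3.34 and 3.25 times those on the cytosolic enzymes in sgLTN1 libraries, against 2.88, 2.80 and 2.94 times in sgNT libraries, and the groups did not overlap. The ER-membrane enzymes took 1.08% ± 0.00840 of all counts in sgLTN1 libraries and 1.00% ± 0.0256 in sgNT libraries (SD, n = 3 each). The cytosolic enzymes took 0.335% ± 0.0128 in sgLTN1 libraries and 0.349% ± 0.00939 in sgNT libraries. These sums are dominated by Scd2 and Acly. Without Scd2 the ER-membrane share was 0.573% ± 0.0114 in sgLTN1 libraries and 0.530% ± 0.0113 in sgNT libraries, and without Acly the cytosolic share was 0.111% ± 0.00659 in sgLTN1 libraries and 0.114% ± 0.00592 in sgNT libraries. Medians of centred log2 CPM, which give each gene equal weight, were 0.05, 0.12 and 0.07 for the ER-membrane enzymes in sgLTN1 libraries 1 to 3, against -0.09, -0.06 and -0.06 in sgNT libraries 1 to 3. For the cytosolic enzymes they were 0.04, -0.02 and 0.02 in sgLTN1 libraries, against 0.01, 0.01 and 0.04 in sgNT libraries. The difference between the class medians of log2 fold change was 0.16. A separate quantity, the difference between the class medians of centred log2 CPM in each library, had an SD of 0.063 in sgLTN1 libraries and 0.020 in sgNT libraries (pooled 0.05). Neither difference was tested because the members were chosen with earlier results known.

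**Figure D3:**
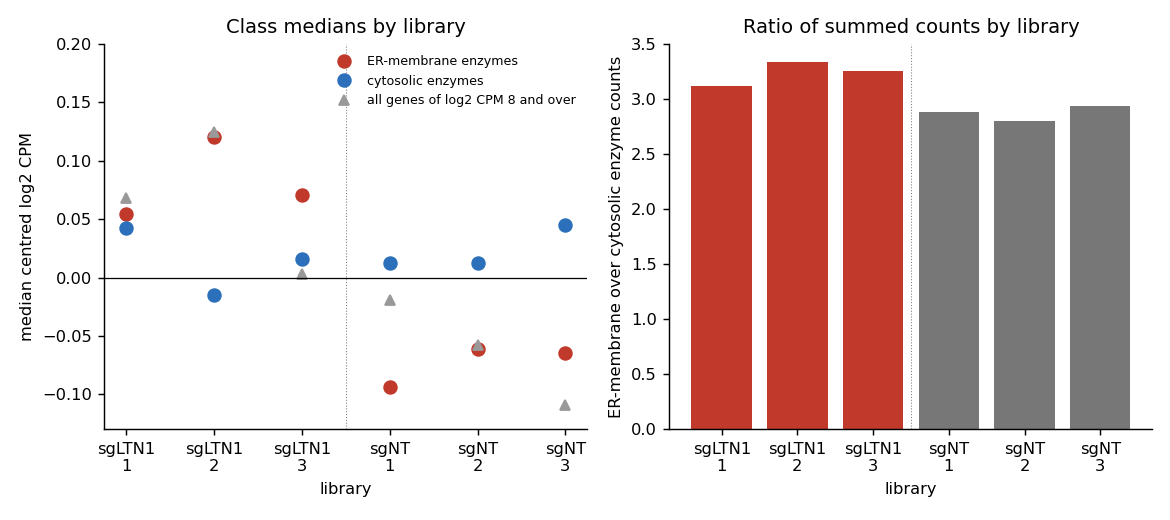
Left, the median centred log2 CPM of the ER-membrane enzymes, the cytosolic enzymes and all genes of mean log2 CPM 8 and over in each library. Right, the ratio of summed counts on ER-membrane enzymes to those on cytosolic enzymes, 3.12 to 3.34 in sgLTN1 libraries and 2.80 to 2.94 in sgNT libraries.

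Abundance moved with these results. Across all tested genes, fold changes were higher for more abundant genes, and the ER-membrane enzymes, with a median of 8.39 on the log2 CPM scale, lay higher on this scale, which is not corrected for gene length, than the cytosolic enzymes, with a median of 4.81. Of all genes with a mean log2 CPM of at least 8, 81.4% lay above 0, with a median log2 fold change of 0.14, and 46.5% were higher at an unadjusted p under 0.05. The 9 ER-membrane enzymes in that range all lay above 0, with a median of 0.19, and 8 of them were higher at an unadjusted p under 0.05. The 2 cytosolic enzymes in that range, Acly and Fasn, had a median of 0.03. Between 6 and 8 the medians were 0.23 for the 3 ER-membrane enzymes, 0.07 for the 2 cytosolic enzymes and 0.04 for all genes. Between 4 and 6 they were 0.13 for 4 ER-membrane enzymes, -0.08 for 6 cytosolic enzymes and -0.01 for all genes. Under 4 the order was the opposite, with Hsd17b7 at 0.03 and 3 cytosolic enzymes at a median of 0.17, beside -0.05 for all genes.

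When the dependence on abundance was removed from each library, the ER-membrane median was 0.09 and the cytosolic median -0.05, so the levels moved down while the distance between the classes was 0.14. In that fit 15 of 17 ER-membrane enzymes and 5 of 13 cytosolic enzymes lay above 0, where 49.4% of all tested genes did. At an unadjusted p under 0.05, 4 members were higher, against 7.07% of all tested genes. These were Sc5d at 0.27 (SE 0.06), Dhcr7 at 0.16 (SE 0.06), Sqle at 0.13 (SE 0.05) and Fads1 at 0.11 (SE 0.04). Scd1 and Scd2 came to 0.05 (SE 0.06) and 0.01 (SE 0.05). Acly, at -0.15 (SE 0.04), and Pmvk, at -0.22 (SE 0.09), were lower at that mark, against 7.83% of all tested genes. The median centred log2 CPM of genes at 8 and over was 0.07, 0.12 and 0.0030 in sgLTN1 libraries 1, 2 and 3, against -0.020, -0.06 and -0.11 in the sgNT libraries, and the groups did not overlap. These genes exceeded scarce genes, those under 2, by 0.13, 0.19 and -0.08 in sgLTN1 libraries 1, 2 and 3, against -0.01, -0.10 and -0.27 in the sgNT libraries. On this second measure sgLTN1 library 3 lay within the sgNT range. The part of abundance in the ER-membrane values of single libraries was not tested.

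**Figure D4:**
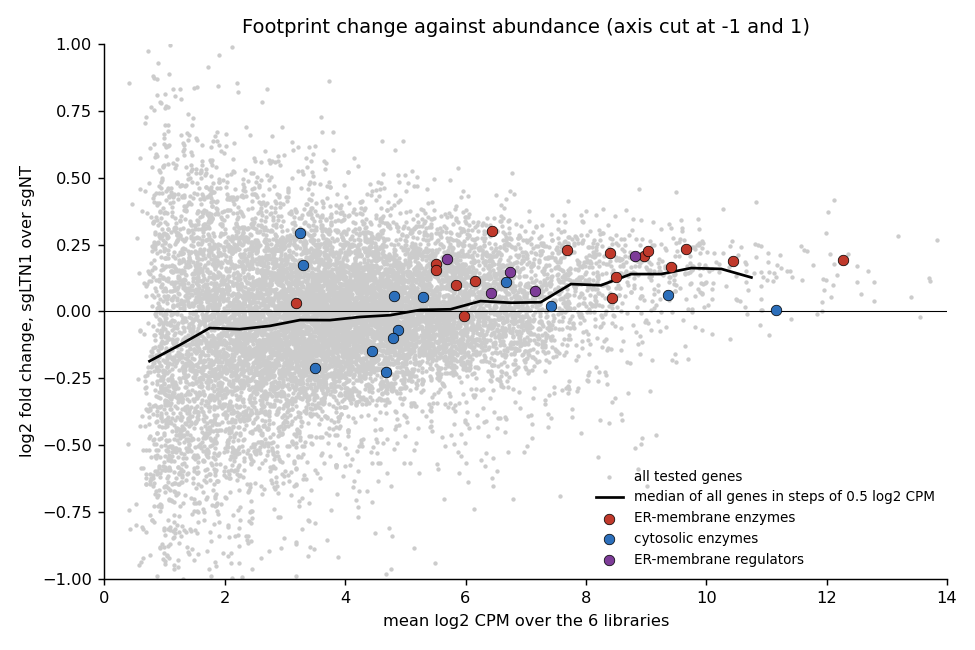
Log2 fold change, sgLTN1 over sgNT, against mean log2 CPM for all tested genes (grey), with the running median of all genes (black line), the ER-membrane enzymes, the cytosolic enzymes and the regulators. The vertical axis is cut at -1 and 1, and the running median climbs with abundance.

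The authors' deposited table, made with DESeq2, gave an adjusted p for 23 of the 36 members. At an adjusted p of 0.05 it called 6 members higher, all among the 14 ER-membrane enzymes with such a value, and none lower, while the authors' deposited table called 6.79% of its 2697 adjusted genes higher. The 6 were Elovl5 (log2 fold change 0.25, SE 0.08, adjusted p = 0.0229), Scd1 (0.21, adjusted p = 0.0293), Scd2 (0.21, adjusted p = 0.0293), Sc5d (0.32, adjusted p = 0.0322), Fads1 (0.25, adjusted p = 0.0330) and Sqle (0.24, adjusted p = 0.0332) in the authors' deposited table. Among the 4 cytosolic enzymes it adjusted, the authors' deposited table called none. It gave no adjusted p to genes with a mean normalized count under 309. Of the 6 called members, all but Sc5d had a mean log2 CPM of at least 8. In that range 81.4% of all genes lay above 0 in the edgeR fit.

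Other genes of lipid metabolism were taken from 5 lists, covering SREBP processing, sterol transport, isoprenoid branches, fatty acid elongation and glycerolipid synthesis. Of 79 genes listed, 78 could be tested, Agpat2 being the exception. Of these, 62 (79.5%) lay above 0, against 47.3% of all tested genes, with a median log2 fold change of 0.15. At an unadjusted p under 0.05, 25 were higher and 2 lower, where 8.0% and 7.56% of all tested genes were, and none passed an adjusted p of 0.05. Medians were 0.11 for SREBP processing and turnover, 0.17 for sterol transport and storage, 0.16 for isoprenoid branches, 0.11 for fatty acid elongation and activation and 0.25 for glycerolipid synthesis.

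Soat1, the ER enzyme that esterifies cholesterol for storage, had the smallest p of these genes. It read 362, 378 and 332 CPM in sgLTN1 libraries, against 295, 274 and 255 CPM in sgNT libraries, with no overlap (0.38, SE 0.07, adjusted p = 0.0745). Mbtps1, the Golgi protease that makes the first cut in SREBP precursors, read 87.2, 83.3 and 83.4 CPM in sgLTN1 libraries, against 76.6, 70.4 and 63.0 CPM in sgNT libraries (0.28, SE 0.08, adjusted p = 0.162). The ER ubiquitin ligase gene Syvn1 was at 0.25 (SE 0.06), the elongase genes Elovl7 and Elovl1 at 0.38 (SE 0.09) and 0.24 (SE 0.07), the lysosomal cholesteryl ester lipase gene Lipa at 0.27 (SE 0.08) and the acyltransferase gene Agpat3 at 0.33 (SE 0.10). Groups did not overlap in any of these, which was a condition for naming them. Fntb, the soluble beta subunit of protein farnesyltransferase, went the other way and read 26.4, 25.2 and 29.8 CPM in sgLTN1 libraries, against 32.1, 34.4 and 36.03 CPM in sgNT libraries (-0.35, SE 0.09, adjusted p = 0.144). Its partner subunit gene Fnta, singled out after its value was seen, was at -0.36 (SE 0.11, adjusted p = 0.175).

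After these values were seen, the 78 genes were also grouped by the location of the protein. Of 49 genes whose product is inserted into or passes through the secretory membranes, 47 lay above 0, with a median of 0.22 and 23 higher at an unadjusted p under 0.05. These are shares of 95.9% and 46.9%, against 47.3% and 8.0% of all tested genes. Of 21 soluble products, 10 lay above 0, with a median of -0.03, 1 gene higher and 2 lower at that mark. Of 8 mitochondrial products, 5 lay above 0, with a median of 0.07 and 1 higher at that mark. The median abundance was 5.91, 4.58 and 3.33 on the log2 CPM scale for these 3 groups. This grouping was chosen with the values in view and was not tested.

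**Figure D5:**
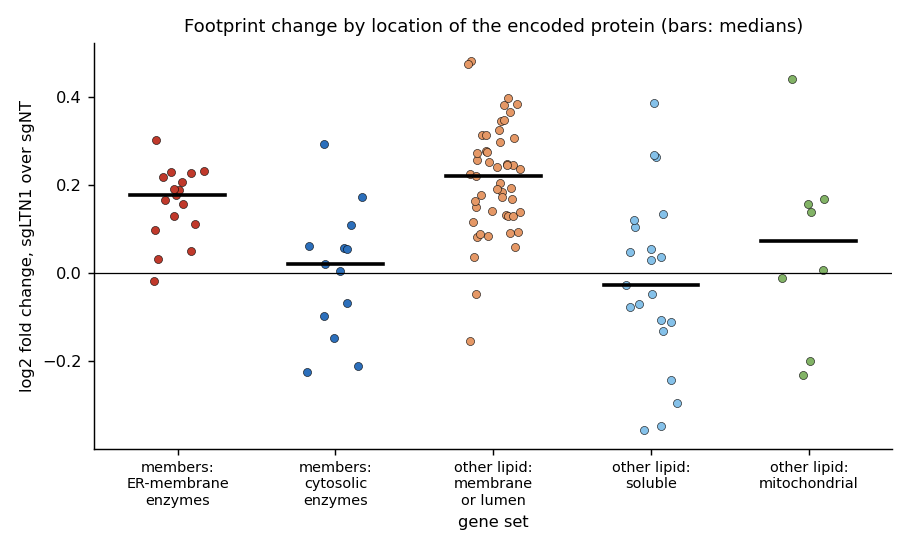
Log2 fold change, sgLTN1 over sgNT, of the ER-membrane enzymes and cytosolic enzymes among the members and of the other lipid genes by location of the encoded protein. Points are genes and bars medians, which were 0.18, 0.02, 0.22, -0.03 and 0.07 from left to right.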

How the data were processed

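Whole-number read counts per gene were deposited by the authors for 6 libraries. The submitters' processing notes name build GRCm39, STAR 2.7.11a and Bowtie2 2.5.4, fastp 0.23.4, featureCounts 2.12.3, SAMtools 1.9 and UMI-tools 1.1.2; for their settings, the annotation, strand and multi-mapping reads, nothing is stated in the sources used here. The other file is, per the file headers, DESeq2 output (1.38.3 in the notes) with a mean normalized count as a signal level, log2 fold changes with errors, the Wald statistic as a score, and p-values, as deposited. Its fold changes ran in the direction of the counts (r = 0.996 across genes).

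The deposited counts were then tested with edgeR 4.0.16 in R 4.3.3 (filterByExpr, 12782 genes kept; TMM; quasi-likelihood test with group as the only term; Benjamini-Hochberg over all tested genes, threshold 0.05). Standard errors come from the test statistic. Alternatives used DESeq2 1.42.0 and limma 3.58.1, other scalings and filters, a loess offset on abundance, and each library left out. Replicate pairs differed by more than sampling noise (chi-square per degree of freedom 2.40 or more).

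Full statistics are given for members with an unadjusted p under 0.05 (at most 12) and 5 regulators, and for other lipid genes with that p and no overlap (at most 8). Members and lists were chosen with earlier results of these data known. Classes follow textbook location. No coding length was used, so levels are not corrected for it and a planned footprint density is left out.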

Additional observations from a re-analysis of the deposited data

How the results depend on the processing

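The distance between the ER-membrane and cytosolic medians, 0.16, was 0.13 to 0.20 when each library was left out in turn and 0.14 to 0.16 under the other alternatives, among them a restriction to members of mean log2 CPM 6 and over that was chosen after seeing the data (0.16). The ER-membrane median, 0.18, was 0.099 with total-count scaling and 0.087 with the abundance trend removed, and 0.18 to 0.20 without single libraries. The cytosolic median, 0.02, was -0.056 and -0.055 under these 2 settings and -0.0069 to 0.051 without single libraries, and 3 and 5 of 13 cytosolic enzymes lay above 0 under them, against 6 to 10 without single libraries. Members higher at an unadjusted p under 0.05, 11 in the reported test, numbered 7 with total-count scaling, 4 with the trend removed and 7 (without sgLTN1 library 1) to 13 without single libraries; for ER-membrane enzymes, 10 in the reported test, the counts were 7, 4 and 7 to 10. Mvk, at 0.34, exceeded Sc5d, at 0.30, with the replicate block. Members above 0 numbered 27 to 29, and ER-membrane enzymes above 0 numbered 15 to 17, without single libraries; with total-count scaling they were 21 and 14.

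Members past an adjusted p of 0.05, 0 in the reported test with 12 at an unadjusted p under 0.05, numbered 6 with DESeq2 (where 6.14% of genes with an adjusted p were called higher), 0 with limma-voom, 8 with the replicate block (3.18% of genes were called higher; Sqle, Sc5d, Dhcr7, Scd1, Scd2, Elovl5, Fads1 and Srebf1, the last at an adjusted p of 0.0255) and 0 to 1 without single libraries, that 1 being Sc5d without sgLTN1 library 3. Genes past an adjusted p of 0.05, 23 in the reported test (11 higher, 12 lower), numbered 42 with total-count scaling (8 higher, 34 lower), 222 with no low-count filter, 211 with DESeq2 (161 higher, 50 lower), 40 with limma-voom, 609 with the replicate block (406 higher, 203 lower) and 4 (without sgLTN1 library 2) to 333 (without sgLTN1 library 3). Same-numbered libraries deviated together with correlations of -0.05, 0.23 and 0.25, so the titles' numbers were not taken to pair the samples.

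Fold changes near 0 changed sign in some settings, and the cause was not tested. With total-count scaling, which moved the median of all genes to -0.092, Hmgcs1 was at -0.019, Fdps at -0.056, Hsd17b7 at -0.046, Ebp at -0.025, Scap at -0.0084, Acly at -0.070, Fasn at -0.013 and Lpin1 at -0.021. With the trend removed, Fdps was at -0.040, Ebp at -0.041, Acly at -0.15 and Fasn at -0.055, and with no filter Fdft1 was at 0.0022. Leaving out single libraries gave ranges that crossed 0 for Acly (-0.0069 to 0.032), Lpin1 (-0.020 to 0.11), Acat2 (-0.12 to 0.029), Idi1 (-0.18 to 0.026), Hsd17b7 (-0.078 to 0.18), Scap (-0.014 to 0.21), Hmgcs1 (-0.018 to 0.18), Fdft1 (-0.049 to 0.038), Fdps (-0.032 to 0.083) and Srebf2 (-0.0029 to 0.14). The members with the fewest counts, Mvk, Mvd, Ggps1, Hsd17b7 and Stard4, had errors of 0.13 to 0.20, and Scap and Idi1, with more counts, had 0.13 each.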
